A study of Homo sapiens with 4 samples.

Results

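The 46 genes described here make, recycle or use glutathione, thioredoxin and NADPH, or regulate the genes that do so. They were selected by gene name on the array. They are represented by 65 of the 41000 probes, of which 63 were tested, and all 46 are among the 14568 named genes tested. NB4, an established human cell line of acute promyelocytic leukemia (APL), was the parent from which an in-house line resistant to arsenic trioxide (ATO) was raised. Each line was grown in 2 flasks, called naive and ATO resistant below, and each flask was hybridized to 1 of 4 one-color Agilent arrays. Both lines were grown in RPMI with 10% FBS, and per the methods the resistant cells were kept without ATO before RNA was prepared. The resistant line is named NB4-VM-AsR1 in the labels and NB4-EV-AsR1 in the methods, and both names are taken here as one clone, which neither source states. The comparison is therefore of 1 derived line with its parent, and other resistant lines were not measured.

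Glutathione is a small thiol peptide made by glutamate-cysteine ligase and glutathione synthetase, kept reduced by glutathione reductase, and joined to foreign or damaged molecules by glutathione transferases. Thioredoxin and the peroxiredoxins form a parallel thiol system that removes peroxides, and both systems draw their reducing power from NADPH. The transcription factor NRF2, held in check by KEAP1, activates many of these genes together with small MAF proteins through the antioxidant response element, and trivalent arsenic is known to bind thiols and to release NRF2 from KEAP1.

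The antioxidant response element core, TGACNNNGC on either strand, was searched because NRF2 is known to act through it. The search covered the RefSeq promoters (GRCh38.p14, 250 bases before to 50 bases after each start). Bases further away were not searched, so that a gene without a match may hold one there. The core was present in 10 of 54 promoters of these genes (18.5%) and in 13.3% of all 35116 promoters. The 10 promoters belonged to 9 of the 37 genes with an entry. Windows of 30 bases are shown for 5 of the genes followed in each flask below, in the direction of the gene, with the match in capitals.
ME1, chr6:83431169-83431198, minus strand: tctcctgccaTGACTCAGCgcttctcgcag
GCLM, chr1:93909445-93909474, minus strand: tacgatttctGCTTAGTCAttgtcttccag
KEAP1, chr19:10502783-10502812, minus strand: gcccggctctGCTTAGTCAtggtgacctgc
PGD, chr1:10398853-10398882, plus strand: cctcgccgggGCAATGTCAtctaggtgctc
TXNRD1, chr12:104286920-104286949, plus strand: gtggatttctGCTTTGTCAttctgactctg
The ME1 match overlaps a match to the AP-1 site, TGANTCA, which was found in 2 of the 54 promoters and in 7.71% of all promoters. The E-box, CACGTG, was found in 6 of the 54 promoters and in 7.26% of all. These matches describe the letters of the promoters, and binding was not measured.

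Values are log2 of the processed signal minus the 75th percentile of the array, so that 0 is the level of a bright probe and 1 unit is a 2-fold difference. They are compared within a probe and not between genes, since probes differ in brightness. A gene was called changed at an adjusted p below 0.05 (limma, Benjamini-Hochberg over all 28221 probes tested) and a change of at least 2-fold. Each gene is given by its brightest probe. The arrays had 28055 and 28185 probes well above background in the naive flasks and 27922 and 28244 in the resistant flasks, and 45 of the 46 genes were well above background on all 4 arrays. The exception was GSTM3, a transferase, in the first resistant flask.

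The naive flasks differed from each other more than the resistant flasks did. Over all probes tested, the log2 difference of a flask pair had an SD of 0.71 in the naive line and 0.37 in the resistant line. For the antioxidant genes the median size of this difference was 0.49 in the naive line and 0.18 in the resistant line, against 0.36 and 0.16 over all genes. The first naive flask was higher than the second in 34 of the 46 genes (73.9%), and in 47.0% of all genes. It was higher by over 0.5 in 21 of them (45.7%), and in 16.3% of all genes. A gap of over 0.5 in either direction was found in 23 of the 46 genes and in 35.6% of all genes. The difference between the naive flasks exceeded the difference between the lines in 30 of the 46 genes (65.2%) and in 49.9% of all genes.

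**Figure D1:**
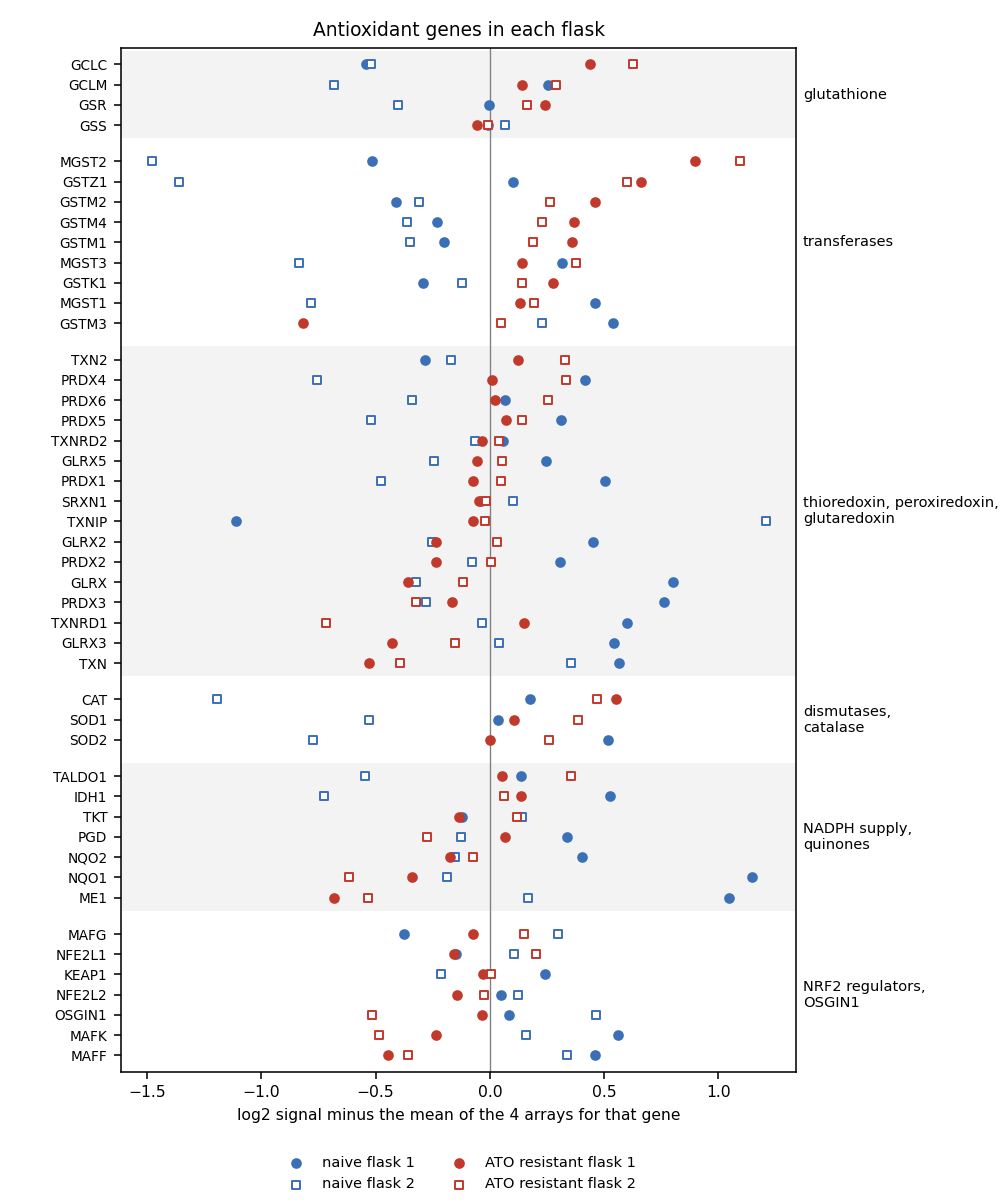
Log2 signal of each of the 46 genes in each flask, centered on that gene's mean over the 4 arrays (x axis) and grouped by role; filled circles are the first and open squares the second flask, blue naive and red ATO resistant. The red symbols of a gene mostly lie close together, while the naive flasks differed by over 0.5 in 23 genes, TXNIP among them.

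Of the 46 genes, 1 was called changed between the lines (2.17%), where 6.17% of all genes and 5.27% of all probes were called. This was MGST2, and it was higher in the resistant line, as were 2.88% of all genes and 2.3% of all probes. None of the 46 was called lower by limma, where 3.29% of all genes and 2.97% of all probes were, although 4 had an unadjusted p below 0.05 in that direction (8.70%, against 10.3% of all genes). With MGST2 included, 8 genes had an unadjusted p below 0.05 (17.4%, against 20.9% of all genes). The median log2 change over the 46 genes was 0.0016, and over all genes 0.0012, with 23 genes above 0 and 23 below. Both resistant flasks lay above both naive flasks in 11 genes (28.2% of the 14444 genes with a value on every array) and below in 10 (29.1% of the 14444), so that 21 of 46 did not overlap, where 57.3% of the 14444 did not, and the flasks overlapped in 25. The 95% interval of the change lay inside 2-fold in either direction for 16 genes (34.8%, against 45.3% of all genes). For the others the interval reached past 2-fold.

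**Figure D2:**
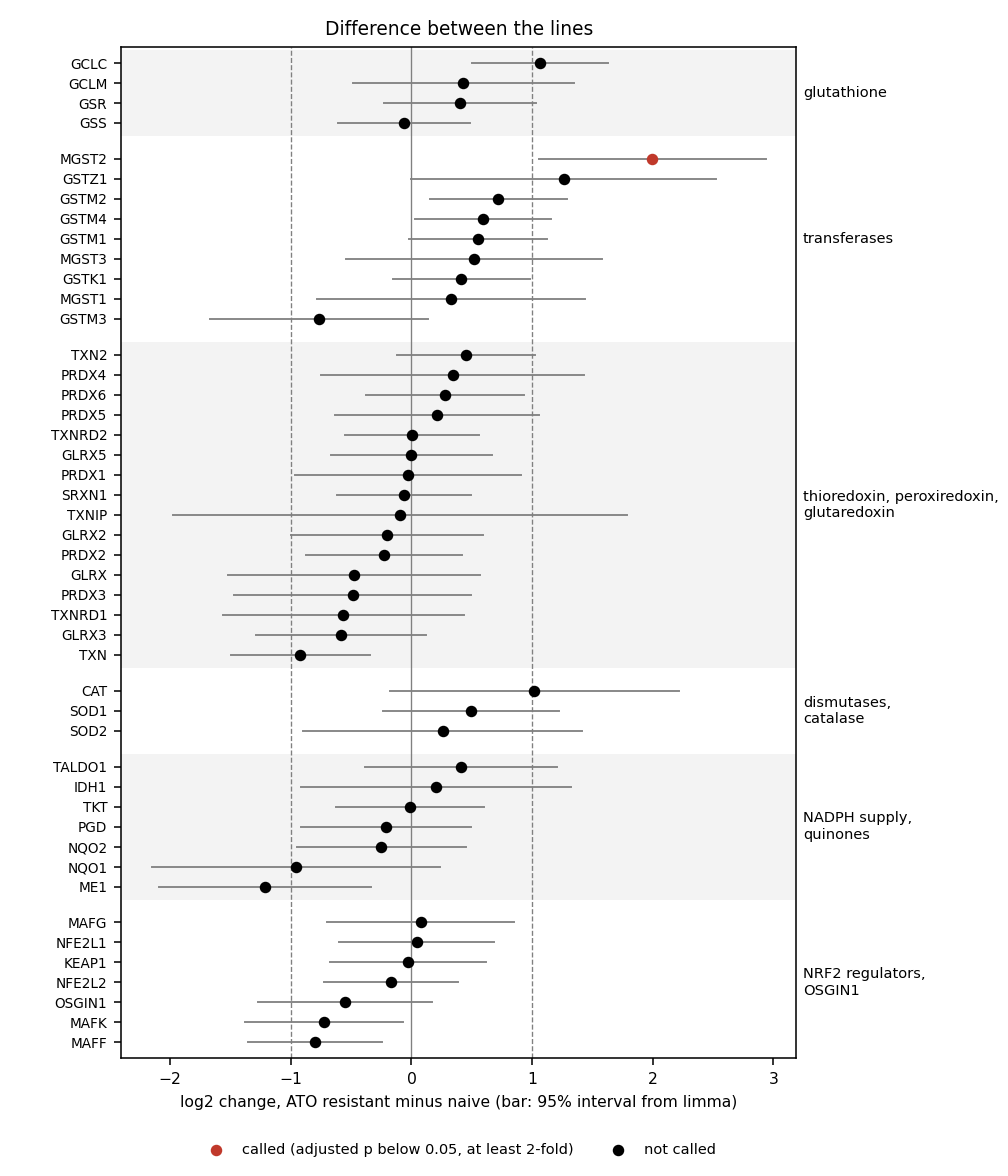
Log2 change of the resistant against the naive line for the 46 genes (points) with the 95% interval from limma (bars), grouped by role; dashed lines mark 2-fold. MGST2, in red, is the gene called, at 2.00, and most other intervals cross 0.

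The 4 genes of glutathione synthesis and reduction had a median log2 change of 0.42, and 0 of them were called (against 6.17% of all genes). The median was 0.75 without the first naive flask and 0.090 without the second. GCLC, the catalytic subunit of glutamate-cysteine ligase, measured 0.84 and 0.86 in the naive flasks and 1.82 and 2.01 in the resistant flasks. The resistant flasks were higher without overlap, and the change of 1.06 (SE 0.22) had an adjusted p of 0.068 (limma). The change was 1.05 without the first naive flask and 1.07 without the second. It was 1.16 without the first resistant flask and 0.97 without the second. A fit with 1 naive flask takes its spread from the resistant flasks alone, which lay closer together. Calls from such fits, given below for other genes, are therefore easier to reach. GCLM, the modifier subunit of glutamate-cysteine ligase, measured 0.57 and -0.37 in the naive flasks and 0.45 and 0.60 in the resistant flasks. Its flasks overlapped, with a change of 0.43 (SE 0.36), which was -0.039 without the second naive flask. GSR, glutathione reductase, measured -0.34 and -0.74 in the naive and -0.10 and -0.18 in the resistant flasks, a change of 0.40 (SE 0.25, limma adjusted p = 0.441). GSS, glutathione synthetase, changed by -0.062 (95% interval -0.61 to 0.49).

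The transferases had a median of 0.55, with 8 of 9 genes above 0, where 7291 of all 14568 genes were. Of the 9, 1 was called (11.1%, against 6.17% of all genes). Without the second naive flask 6 of 9 were above 0. MGST2, a microsomal transferase, measured -0.05 and -1.02 in the naive flasks and 1.36 and 1.56 in the resistant flasks. Both resistant flasks were higher than both naive flasks, with a log2 change of 2.00 (SE 0.37, 95% interval 1.06 to 2.94) and an adjusted p of 0.0485 (limma). The call stood close to the threshold. It was lost under several other settings and without either resistant flask (limma adjusted p = 0.167 and 0.237), while the log2 change stayed between 1.51 and 2.48 when flasks were left out. GSTZ1, which also isomerizes maleylacetoacetate in tyrosine breakdown, measured -0.46 and -1.92 in the naive and 0.10 and 0.04 in the resistant flasks. Its change of 1.26 (SE 0.50, limma adjusted p = 0.262) was smaller than the difference of 1.46 between the naive flasks. Without the first naive flask GSTZ1 (1.99) and MGST3 (1.09) were called higher, whereas without the second GSTZ1 was 0.53 and MGST3 -0.054, neither of them called. The others ranged from -0.77 for GSTM3 to 0.72 for GSTM2. GSTM3 was not well above background in the first resistant flask, and without that flask its change was -0.33.

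The GSTM genes belong to one family, and some of their probes resemble each other. A 27-base stretch of 3 of their probes is shown so that this resemblance can be seen. The bases that differ from the GSTM3 probe are in capitals.
GSTM3: ctttgtggattttctcacctatgatgt
GSTM2: ctttgtggatttCAtcGcTtatgatgt
GSTM4: TtttgtAgattttctcGTctatgatgt
Each of the other probes differs from this GSTM3 probe at 4 of these bases. Over their whole overlap, 29 of 35 bases were identical between the GSTM2 and GSTM3 probes and 42 of 52 between the GSTM3 and GSTM4 probes. For GSTM3 and GSTM4 these are not the probes that give the gene values here. The probe shown as GSTM4 bears that name on the array, but its annotated position (hg19, chr1:110233081-110233140) is nearer to the GSTM1 probe (from 110231672) than to the other GSTM4 probes (from 110200415 and 110201458). The GSTM3 probe shown was not well above background on any array, while the GSTM2 and GSTM4 probes shown were so on all 4. GSTM1, GSTM2 and GSTM4 lay 0.55, 0.72 and 0.59 higher in the resistant line, without overlap of the flasks and without a call, and the value of GSTM4 comes from another probe than the one shown.

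The thioredoxin, peroxiredoxin and glutaredoxin genes had a median of -0.079. Of the 16, 5 were above 0 and 11 below (against 7291 and 7277 of all 14568 genes). None was called, where 6.17% of all genes were. The direction rested on the naive flasks, since without the first of them the median was 0.075 with 10 of 16 above 0, and without the second it was -0.33 with 4 of 16 above 0. The flasks of the lines overlapped in 13 of them (81.2%), and in 42.3% of all 14568 genes tested. That base includes genes without a value on every array. TXN, cytosolic thioredoxin, measured 5.83 and 5.62 in the naive and 4.74 and 4.87 in the resistant flasks. It was lower in both resistant flasks, with a change of -0.92 (SE 0.23, limma adjusted p = 0.105), and its other probe gave -0.90. The array annotation places both TXN probes on other chromosomes than the gene. TXNRD1, the cytosolic thioredoxin reductase, measured 0.26 and -0.38 in the naive and -0.19 and -1.06 in the resistant flasks, which overlapped (change -0.57, SE 0.39). SRXN1, sulfiredoxin, which repairs oxidized peroxiredoxins, measured 1.62 and 1.76 in the naive and 1.61 and 1.64 in the resistant flasks. Its 95% interval of -0.62 to 0.49 lay inside 2-fold. GLRX3, a glutaredoxin of iron-sulfur protein assembly, measured 4.88 and 4.38 in the naive and 3.905 and 4.18 in the resistant flasks, a change of -0.58 (SE 0.28, limma adjusted p = 0.338). Its probe is also placed on another chromosome. Without the second naive flask TXN (-1.03), GLRX (-1.04) and PRDX3 (-1.01) were called lower. Without the first naive flask none of the 3 was called, with TXN at -0.82, GLRX at 0.085 and PRDX3 at 0.034. When a single naive flask is left, it is assumed to vary as the resistant flasks do.

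TXNIP, which binds and inhibits thioredoxin, had the widest spread between the naive flasks and was singled out after its values were seen. It measured 3.86 and 6.18 in the naive flasks, the second of them saturated, and 4.90 and 4.95 in the resistant flasks. The resistant flasks lay between the naive flasks, and the change was -0.095 (limma adjusted p = 0.963). Without the first naive flask it was called lower (-1.25, limma adjusted p = 0.00928), against a naive value that is saturated and so only a bound, and without the second it was called higher (1.07, limma adjusted p = 0.0144). The peroxiredoxins PRDX1 to PRDX6, the peroxidases that thioredoxin or glutathione reduce, ranged from -0.49 for PRDX3 to 0.34 for PRDX4. By their brightest probes all 6 overlapped between the lines, as did 42.3% of all genes. The second PRDX2 probe did not overlap, at -1.35 and -2.08 in the naive and -2.15 and -2.16 in the resistant flasks (change -0.44).

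**Figure D3:**
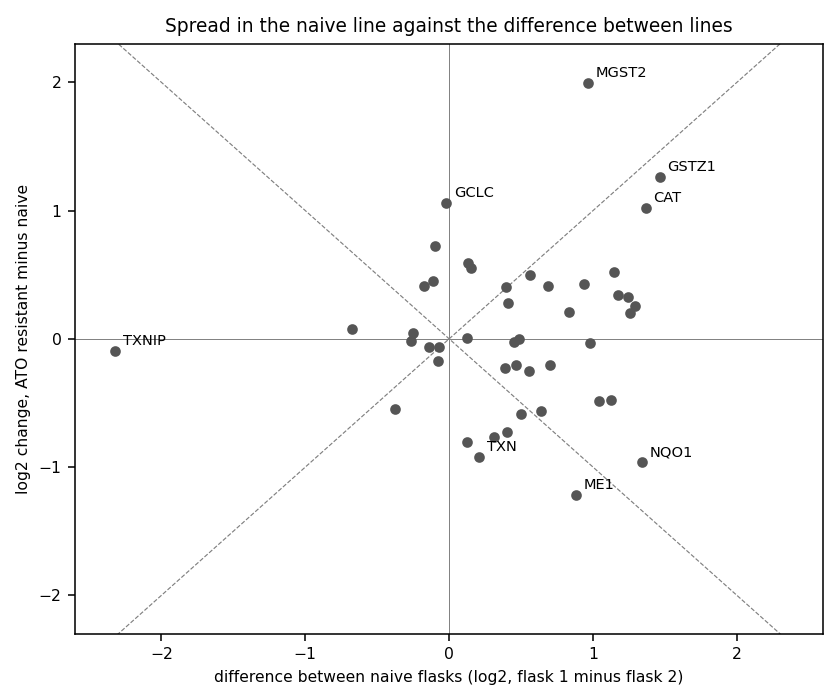
Log2 change between the lines (y axis) against the log2 difference between the naive flasks (x axis) for the 46 genes; dashed diagonals mark equal size. The 30 genes nearer to the x axis than the diagonals, TXNIP at the far left included, differed more between the naive flasks than between the lines.

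The superoxide dismutases and catalase, 3 genes, had a median of 0.49, the value of SOD1, with 0 called (against 6.17% of all genes). It was 0.90 without the first naive flask and 0.21 without the second. CAT, catalase, measured 2.64 and 1.27 in the naive and 3.02 and 2.93 in the resistant flasks. Its change of 1.02 (SE 0.47, limma adjusted p = 0.327) was smaller than the difference of 1.37 between the naive flasks, and without the first of them it was called higher (1.70), but not without the second (0.34). SOD1, the cytosolic dismutase, measured 5.89 and 5.32 in the naive and 5.96 and 6.24 in the resistant flasks, a change of 0.49 (SE 0.29), and its probe was saturated on 2 arrays. The other SOD1 probe, saturated on none, gave 0.26 with overlapping flasks.

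The NADPH supply and quinone reduction genes had a median of -0.21. Of the 7, 5 were below 0 (against 7277 of all 14568 genes) and 0 were called (against 6.17% of all genes). Without the first naive flask the median was 0.024 with 3 of 7 below 0, and without the second it was -0.44. ME1, the cytosolic malic enzyme, which yields NADPH and whose promoter window is shown above, measured 0.91 and 0.03 in the naive and -0.82 and -0.67 in the resistant flasks. Both resistant flasks were lower, with a change of -1.21 (SE 0.35, limma adjusted p = 0.148) and -1.14 at the second probe. NQO1, a quinone reductase often used as a readout of NRF2, measured -1.99 and -3.33 in the naive and -3.48 and -3.75 in the resistant flasks. The change was -0.96 (SE 0.47, limma adjusted p = 0.352), smaller than the difference of 1.34 between the naive flasks. With normexp background correction the change of NQO1 was -0.24. Without the second naive flask ME1 (-1.65) and NQO1 (-1.63) were called lower, and without the first, at -0.77 and -0.29, they were not. PGD, an NADPH-yielding enzyme of the pentose phosphate pathway, measured 3.12 and 2.66 in the naive and 2.85 and 2.51 in the resistant flasks, which overlapped. TKT, transketolase, was saturated on all 4 arrays, so that its change of -0.016 shows little.

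The NRF2 regulators and OSGIN1 had a median of -0.17. Of the 7, 5 were below 0 (against 7277 of all 14568 genes) and 0 were called (against 6.17% of all genes). The median of the 7 lay between -0.26 and -0.11 when each flask was left out in turn. It was -0.082 with normexp background correction and -0.0064 with scale normalization. NFE2L2, which encodes NRF2, measured 2.82 and 2.90 in the naive and 2.63 and 2.75 in the resistant flasks, a change of -0.17 (95% interval -0.73 to 0.38). KEAP1 measured 4.68 and 4.22 in the naive and 4.41 and 4.44 in the resistant flasks, a change of -0.027 (95% interval -0.67 to 0.62), whose sign turned under quantile, scale and median normalization, under normexp with bright local backgrounds reset, and without the first naive flask. Both intervals lay inside 2-fold. Transcript level does not measure NRF2 protein, which KEAP1 controls after translation. MAFF, a small MAF protein, measured -2.24 and -2.37 in the naive and -3.15 and -3.07 in the resistant flasks. It was lower without overlap, with a change of -0.80 (SE 0.22, limma adjusted p = 0.132). With normexp background correction the change of MAFF was -0.29. MAFK, of the same family, measured 2.302 and 1.90 in the naive and 1.502 and 1.25 in the resistant flasks, also without overlap (change -0.72, SE 0.26, limma adjusted p = 0.225). The 4 probes of NFE2L1, a relative of NRF2, ranged from -0.38 to 0.19, and the brightest was saturated on all arrays. The array annotation places the probe at 0.19 on another chromosome than the gene.

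The remaining genes of these pathways were taken from 4 lists of 100 genes in all, of which 86 were tested. In them 6 genes were called (6.98%, against 6.17% of all genes), 1 higher and 5 lower, and the median log2 change was -0.048. Of the 6, 4 were tested only because they were well above background in the naive flasks, so that neither their count nor their p-values support a direction, and they are described by lower bounds alone. With genes well above background on all 4 arrays, 2 were called. Among 25 other glutathione genes 1 was called. This was GLO1, glyoxalase 1, which uses glutathione to clear methylglyoxal, at 0.38 and 0.17 in the naive and -1.38 and -1.60 in the resistant flasks (change -1.77, SE 0.23, limma adjusted p = 0.0165). Not called were GGT5, at -1.99 and -1.68 in the naive and -2.97 and -2.84 in the resistant flasks, and CHAC2, at 0.83 and -0.16 in the naive and -0.53 and -0.71 in the resistant flasks. Both are enzymes of glutathione breakdown, with changes of -1.07 and -0.95.

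Among 17 other NADPH supply genes 2 were called, where 6.17% of all genes were, and both were tested through the naive flasks only. ALDH1L2, a folate dehydrogenase that yields NADPH, measured -2.21 and 0.75 in the naive flasks and was not well above background in either resistant flask, at least 53.5-fold lower. Its naive flasks differed by 2.97, and the bound was 19.1-fold from the first alone and 149-fold from the second. ME3, a mitochondrial malic enzyme, measured -3.67 and -2.99 in the naive flasks. It was not well above background in the resistant flasks, at least 8.82-fold lower. Its bound was 6.99-fold from the first naive flask alone and 11.1-fold from the second. For these bounds the naive side was the mean of both flasks, unless a single flask is named. The dim side was put at the dimmest signal still measured above background on that array, unless the probe itself was brighter. FDXR, ferredoxin reductase, was not called, at 1.76 and 2.32 in the naive and 2.72 and 2.89 in the resistant flasks (change 0.76). NNT, the mitochondrial transhydrogenase, was not called, at 0.48 and -0.31 in the naive and 0.89 and 0.62 in the resistant flasks (change 0.67). RPE, of the pentose phosphate pathway, was not called, at 1.13 and 0.50 in the naive and 0.20 and 0.24 in the resistant flasks (change -0.60).

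Among 24 other NRF2 pathway genes 3 were called, where 6.17% of all genes were, and CBR1 and AKR1C3 were tested through the naive flasks only. CBR1, a carbonyl reductase, measured -2.04 and -2.29 in the naive flasks. From their mean it was at least 19.8-fold lower in the resistant line (21.6-fold from the first alone and 18.2-fold from the second). AKR1C3, an aldo-keto reductase, measured -4.64 and -3.72 in the naive flasks. From their mean it was at least 4.91-fold lower (3.57-fold from the first alone and 6.75-fold from the second). Neither gene was well above background in a resistant flask. BLVRB, biliverdin reductase B, was higher, at -2.44 and -2.28 in the naive and -0.99 and -1.01 in the resistant flasks (change 1.36, SE 0.22, limma adjusted p = 0.0319). AKR1B1, an aldo-keto reductase, was not called, at 3.11 and 2.59 in the naive and 1.63 and 1.48 in the resistant flasks (change -1.30, limma adjusted p = 0.068), and the array annotation places its probe on another chromosome. PIR, pirin, was not called, at -0.73 and -2.36 in the naive and -0.35 and -0.08 in the resistant flasks (change 1.33). Of 20 other thioredoxin fold genes 0 were called by limma, and 1 had an unadjusted p below 0.05. The largest changes among them were those of NME8, listed on the array as TXNDC3 (-0.67 and 0.55 in the naive, 0.91 and 1.22 in the resistant flasks, change 1.12), MSRB2 (1.44 and 1.28, 1.92 and 2.11, change 0.65) and TXNDC16 (-1.13 and -1.72, -0.79 and -0.91, change 0.57).

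**Figure D4:**
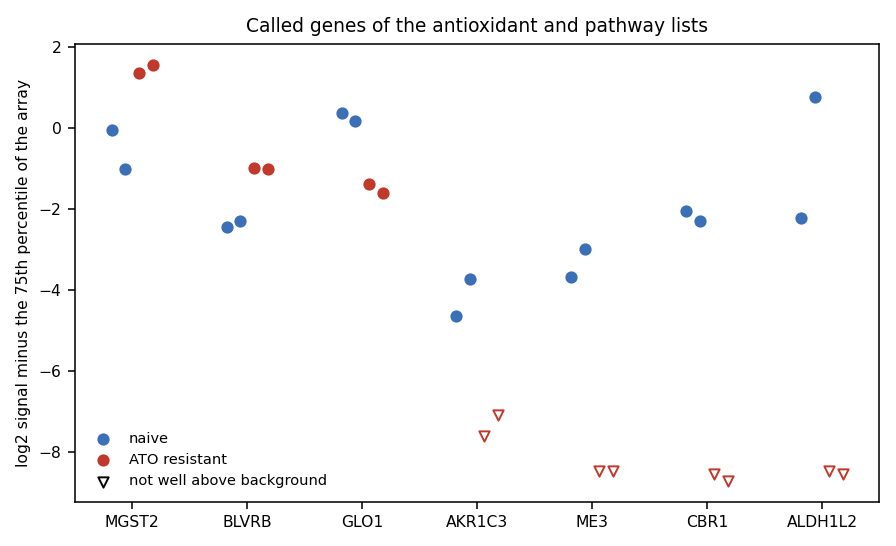
Log2 signal minus the 75th percentile of the array (y axis) in each flask for the called genes among the antioxidant genes and pathway lists; circles are measured values and open triangles values not well above background. MGST2 and BLVRB lie higher in the resistant flasks, and AKR1C3, ME3, CBR1 and ALDH1L2 reach background there.

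The cells were checked against markers of their type. Of 8 promyelocyte markers 7 were well above background on all 4 arrays, the exception being ELANE in the second naive flask, and the MPO probe was saturated on all arrays. AZU1, a granule protein, was called higher in the resistant line (1.17). ELANE, another, measured -5.74 in the first naive flask and -3.66 in each resistant flask, and ANPEP, a surface aminopeptidase, was called lower (-1.83). No stromal marker of 6 passed background on every array, and 3 of 6 endothelial markers did, with ESAM, whose probe was the brightest of them, at -4.49 and -4.04 in the naive and -4.56 and -5.23 in the resistant flasks. Of 6 monocyte markers 3 did, and MARCO was called higher (1.87), while CD14 lay lower in both resistant flasks and was not called (-0.50). The log2 of the summed signals of the monocyte probes, most of it from the CSF1R probe, was 1.55 and 1.77 in the naive and 2.77 and 2.96 in the resistant flasks, while CD163 and FCGR3A were not well above background on any array. Of 6 lymphoid markers 4 passed background on every array. CD3D was tested through the naive flasks only, so that its p-value supports no direction. From the mean of the naive flasks it was at least 169-fold lower in the resistant line. Of 6 erythroid markers 3 passed background on every array, and none was called by limma (0 at an unadjusted p below 0.05). The part of these markers in the antioxidant gene values was not tested.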

How the data were processed

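RNA of 2 flasks per line was hybridized to 4 arrays on 1 slide. The scanner output, made by the authors in Feature Extraction 10.5.1.1, was deposited as intensity values on a linear scale (background-subtracted processed signal, mean signal, local background). The authors also deposited a log2 table shifted to the 75th percentile in GeneSpring GX, which correlated with the values computed here at r of at least 0.9998 across probes. Here log2 processed signal minus the 75th percentile was computed, without outlier and control spots, and a probe's spots were averaged. A probe was tested if well above background in both flasks of a line. The difference between lines was fitted in limma 3.58.1 (lmFit and eBayes, in R 4.3.3) with Benjamini-Hochberg adjustment. The fit was also run on simulated data with large planted changes and the same noise in both lines. The naive flasks here varied more than the resistant flasks, so that run does not bear on the calls. Probe positions are hg19. Probes placed on another chromosome than the gene number 7, in 5 genes.

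The genes and lists were chosen with earlier results of these data known. Values in each flask are given for called genes, the 2 largest changes per role group among genes well above background on all arrays, and 10 listed genes; of the pathway lists, called genes and the 3 largest changes per list. The number of arrays limits the precision, and p-values measure only the spread between these flasks. An exact permutation test of 2 against 2 cannot go below 0.333.

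Alternatives were normexp background correction (offset 50, also with local backgrounds over 100 reset), quantile, scale and median normalization, other probe filters, an intensity trend, the deposited table, the methods' t-test, a replicate block, each flask left out, and the mean over probes.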

Additional observations from a re-analysis of the deposited data

How the results depend on the processing

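The 18 named genes gave 342 values across the alternatives, of which 310 stayed in the same direction and on the same side of the threshold, 11 became called, 12 lost the call (all MGST2) and 9 changed sign. MGST2 kept its call in 7 of 19 alternatives, and GCLC was called in 6. With limma, genes called among the 46 numbered 0 with normexp (2 at an unadjusted p below 0.05), quantile normalization (9), the median shift (7), no filter on dim probes (8), the filter for all 4 arrays (9), saturated probes left out (8), the deposited table (8) and the replicate block (10), and 0 with the methods' t-test after adjustment (6). They numbered 2 with normexp after bright local backgrounds were reset, with the intensity trend and with the mean over probes, and 0 to 8 with a flask left out: 6 without naive flask 1, 8 without naive flask 2, and 0 without either resistant flask (2 and 3 at an unadjusted p below 0.05). Called probes, 1487, numbered 0 with normexp (929 unadjusted) and with the adjusted t-test (4138 unadjusted), 760 with the filter for all 4 arrays, and 728 to 4536 with a flask left out. The pathway lists, with 6 called, gave 0 with normexp (4 unadjusted) and the adjusted t-test (15 unadjusted), 2 with the filter for all 4 arrays, which tests fewer genes, and 4 to 15 with a flask left out. The median of the NRF2 regulators was -0.082 with normexp, -0.0064 with scale normalization and -0.26 to -0.11 with a flask left out, that of the transferases 0.68 with scale normalization and 0.50 to 0.67, and that of glutathione synthesis 0.090 to 0.75. KEAP1 was 0.011 with normexp after the reset, 0.022 with quantile, 0.17 with scale and 0.018 with median normalization, and -0.25 to 0.20 with a flask left out. SRXN1 was 0.080 with scale normalization and -0.13 to 0.0069 with a flask left out, PGD -0.44 to 0.024 and GCLM -0.039 to 0.90. Apart from fewer genes or flasks, the cause was not tested. The median over all probes shifted by 0.149 with normexp and by 0.103 with scale normalization. The replicate numbers of the flasks only name them (correlation of deviations 0.119), and the replicate block called 1375 probes, 0 of the 46 genes and 5 of the pathway lists. The slide could not be a block, as all arrays lay on 1 slide.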
